A study of Ovis aries with 18 samples.

Results

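The trophectoderm is the outer epithelium of the blastocyst, the layer that pumps fluid into the blastocyst cavity and later forms the embryonic part of the placenta. Its identity is set by a small group of transcription factors, and 8 of them were chosen by name: CDX2, GATA2, GATA3, TFAP2A, TFAP2C, EOMES, ELF3 and KLF5. Of these, 6 were matched by symbol among the 20092 genes of the count table, and all 6 were among the 16488 genes tested. GATA3 and TFAP2A were not analysed here.

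Embryo RNA was sequenced from 12 pools of 5 blastocysts, 6 sired by 3 control rams and 6 by 3 methionine-treated rams, whose meals before puberty were topped with 1.5 g of methionine protected from breakdown in the rumen. The comparison asked whether the diet of the sire was followed by a difference in embryo gene expression. Control pools came as 2 each from Ram410, Ram423 and Ram444, whereas treatment pools came as 4 from Ram424 and 1 each from Ram498 and Ram511, so that the treatment group was mostly the progeny of 1 sire. Pools were named by ram and pool number, the embryos were flushed from superovulated ewes, and the dams of each pool were not part of any comparison. By the paper each ram was penned with 1 or 2 ewes, and the sample labels do not name the dams, so sire and dam cannot be told apart.

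Whole transcriptome amplification of the RNA preceded library preparation, and the counts summed to between 1017847 and 2398589 per pool. These totals are far below the reads per pool given in the paper, so only a small part of the reads was counted in genes. Whether low levels lay above background was not tested. Levels are given as CPM, counts scaled to the library total, after TMM normalization, which adjusts the totals so that most genes stay level between pools. Transcript lengths were not used here, so the CPM of a gene is compared between pools and not with that of another gene. Each pool is a mixture of trophectoderm and inner cell mass, and in such bulk samples fewer cells of a type and less RNA per cell cannot be told apart.

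The pools Embryo444_2 (a control pool) and Embryo511_1 (a treatment pool) stood apart from the others over all genes. Spearman coefficients among the other 10 pools were 0.806 to 0.955, those between either discordant pool and the 10 were 0.526 to 0.626, and that between the 2 discordant pools was 0.570. Genes listed as markers of the trophectoderm and of the inner cell mass were detected in the 10 concordant pools. The simple-epithelium keratins KRT8 and KRT18, which fill trophectoderm cells, lay at 3893 to 11862 and 696 to 2219 CPM. POU5F1, a pluripotency factor of the inner cell mass, lay at 132 to 521 CPM, but in ruminants the trophectoderm may also carry it. In Embryo444_2 and Embryo511_1, KRT8 was at 116 and 42.6 CPM, KRT18 at 14.2 and 34.7 CPM, and POU5F1 at 14.2 and 39.7 CPM, below the range of the concordant pools. Not all markers were low there: the keratin KRT19 was at 8.49 and 18.8 CPM against 6.23 to 59.5 CPM and the pluripotency factor NANOG at 9.91 and 7.93 CPM against 5.10 to 16.3 CPM, and PRDM14, a germline and pluripotency factor, was higher in both, at 43.9 and 83.3 CPM against 14.5 to 37.9 CPM. Results are therefore given with and without these 2 pools.

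In the mouse, where the pathway was first worked out, position on the outside of the embryo turns off Hippo signalling, so that YAP1 enters the nucleus and acts with TEAD4 to switch on CDX2, while GATA3 is activated in parallel. CDX2 represses the pluripotency factor POU5F1 in trophectoderm cells, TFAP2C helps both to activate CDX2 and to build the epithelium, and EOMES acts later to maintain trophoblast stem cells. In ruminants POU5F1 remains in the trophectoderm for longer than in the mouse, and both layers may therefore carry it.

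CDX2 is the caudal-type homeobox factor that specifies and maintains the trophectoderm. It was at 110 and 36.8 CPM in the pools of Ram410, 23.6 and 30.2 CPM in those of Ram423, and 28.4 and 2.83 CPM in those of Ram444. In embryos from treatment sires it was at 43.0, 23.2, 33.2 and 38.8 CPM in the 4 pools of Ram424, 35.5 CPM in the pool of Ram498 and 7.93 CPM in that of Ram511. The range of the treatment pools was within that of the control pools, the highest value was in a control pool (Embryo410_1) and the lowest 2 values were in the discordant pools, one in each group. The group means were 38.6 ± 36.8 CPM in control and 30.3 ± 12.8 CPM in treatment pools (SD, n = 6 each).

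GATA2 is a zinc-finger factor that takes part in the trophoblast programme. Control pools were at 48.2 and 61.6 CPM for Ram410, 38.6 and 43.0 CPM for Ram423, and 33.4 and 4.25 CPM for Ram444. The pools of Ram424 were at 81.7, 82.7, 86.1 and 76.2 CPM, that of Ram498 at 44.0 CPM and that of Ram511 at 3.97 CPM. All 4 pools of Ram424 were therefore above the other 8 pools, while the other treatment pools were within or below the control range. The means were 38.2 ± 19.2 CPM in control and 62.4 ± 32.5 CPM in treatment pools (SD, n = 6 each).

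TFAP2C encodes AP-2 gamma, an activator of trophectoderm genes. It was at 443 and 326 CPM in the pools of Ram410, 571 and 432 CPM in those of Ram423, and 448 and 49.6 CPM in those of Ram444. The pools of Ram424 were at 830, 719, 447 and 484 CPM, that of Ram498 at 376 CPM and that of Ram511 at 27.8 CPM. The first 2 pools of Ram424 were above all others, and the remaining concordant pools of either diet overlapped. The means were 378 ± 179 CPM in control and 481 ± 281 CPM in treatment pools (SD, n = 6 each).

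EOMES is a T-box factor of the trophoblast stem cell state that also acts in the definitive endoderm and in cytotoxic lymphocytes. It was at 35.4 and 24.1 CPM in the pools of Ram410, 67.9 and 39.8 CPM in those of Ram423, and 28.4 and 96.3 CPM in those of Ram444. The pools of Ram424 were at 35.4, 29.4, 33.2 and 37.4 CPM, that of Ram498 at 47.6 CPM and that of Ram511 at 18.8 CPM. The discordant control pool held the highest and the discordant treatment pool the lowest value, and the groups overlapped between them. The means were 48.6 ± 28.0 CPM in control and 33.6 ± 9.47 CPM in treatment pools (SD, n = 6 each).

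ELF3 is an epithelium-specific ETS factor. It was at 48.9 and 70.1 CPM in the pools of Ram410, 150.0 and 65.4 CPM in those of Ram423, and 56.8 and 10.6 CPM in those of Ram444. The pools of Ram424 were at 94.6, 104, 88.2 and 83.1 CPM, that of Ram498 at 77.1 CPM and that of Ram511 at 15.9 CPM. The 5 concordant treatment pools were within a narrow band, and of the 6 control pools Embryo423_1 was above and the other 5 were below that band. The means were 67.0 ± 45.9 CPM in control and 77.2 ± 31.5 CPM in treatment pools (SD, n = 6 each).

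KLF5 is a Krüppel-like factor needed in the mouse blastocyst for both of its layers. It was at 119 and 65.2 CPM in the pools of Ram410, 76.4 and 47.5 CPM in those of Ram423, and 85.9 and 14.9 CPM in those of Ram444. The pools of Ram424 were at 167, 206, 84.0 and 109 CPM, that of Ram498 at 64.4 CPM and that of Ram511 at 30.7 CPM. As for TFAP2C, the first 2 pools of Ram424 held the highest values, and the other concordant pools of the 2 diets overlapped. The means were 68.1 ± 35.3 CPM in control and 110 ± 65.4 CPM in treatment pools (SD, n = 6 each).

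**Figure D1:**
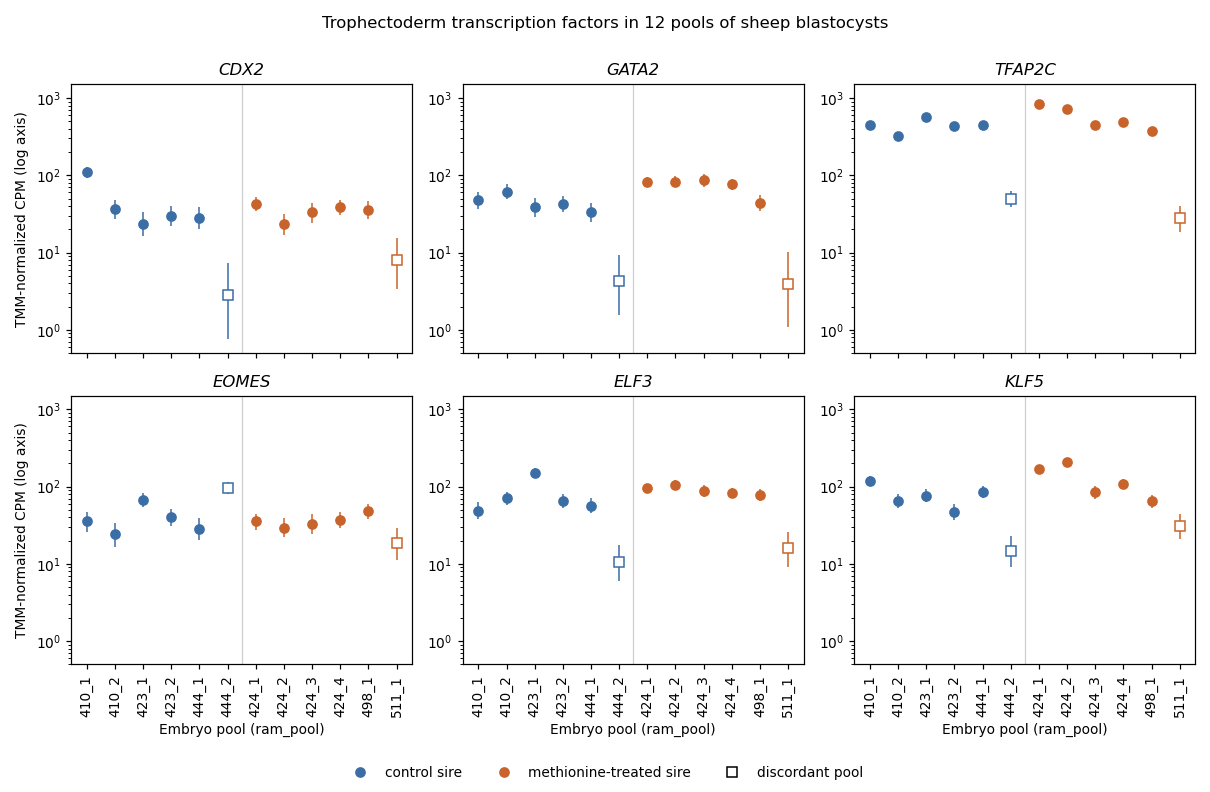
TMM-normalized CPM (log axis) of each analysed factor in the 12 embryo pools, control sires at left and methionine-treated sires at right of the grey line, with exact 95% Poisson intervals that cover counting error only. Open squares mark Embryo444_2 and Embryo511_1, which were below the 10 other pools for every factor shown but EOMES, while the 4 pools of Ram424 were the highest for GATA2.

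Between diets, 4 of the 6 factors had a higher and 2 a lower fitted level in embryos from treatment sires, and no difference passed the test. The quasi-likelihood test of edgeR, fitted over all 16488 genes, called 0 of 6 factors at a false discovery rate (FDR) under 0.05, where it called 0% of all genes. At an unadjusted p under 0.05 it also counted 0 of 6 factors, beside 7.92% of all genes. The median log2 fold change of the 6 factors was 0.28, beside 0.01 over all genes tested.

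Among the factors with a higher fitted level, GATA2 had a log2 fold change (methionine minus control) of 0.72 ± 0.54 (SE; edgeR FDR 0.746) and KLF5 one of 0.70 ± 0.45 (FDR 0.714). TFAP2C followed with 0.35 ± 0.61 (FDR 0.899) and ELF3 with 0.21 ± 0.47 (FDR 0.926). The 2 factors with a lower fitted level were EOMES, at -0.52 ± 0.34 (FDR 0.719), and CDX2, at -0.33 ± 0.55 (FDR 0.892). With standard errors of 0.34 to 0.61, differences of this size were not resolved with 6 pools a group.

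An exact two-sided permutation test of mean log2(CPM + 1) over all assignments of 12 pools gave p = 0.286 for KLF5, 0.288 for EOMES, 0.465 for GATA2, 0.554 for ELF3, 0.797 for TFAP2C and 0.926 for CDX2. Since several pools came from 1 sire, the test was repeated by ram, and with the ram as the unit (3 against 3) the exact p values were between 0.5 and 0.9. By ram the difference of mean log2(CPM + 1), methionine minus control, had the opposite sign to that by pool for 4 factors. It was -0.25 against 0.57 for GATA2, -0.71 against 0.13 for TFAP2C, -0.11 against 0.34 for ELF3 and -0.25 against 0.06 for CDX2. The design of 3 against 3 rams allows no p below 0.1, and in it Ram511 is the discordant pool Embryo511_1 alone. With pools summed per ram, the edgeR log2 fold change was 0.24 for GATA2, -0.094 for TFAP2C, -0.050 for ELF3 and -0.48 for CDX2. With the ram as a random effect in limma it was 0.42, -0.59, 0.24 and 0.090 in the same order.

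Without the 2 discordant pools, the differences of GATA2 and KLF5 were of a similar size, and their spread within each diet was smaller. In this 5 against 5 comparison the control pools had 44.9 ± 10.8 and the treatment pools 74.1 ± 17.2 CPM of GATA2 (SD), a log2 fold change of 0.71 ± 0.24 (SE; edgeR p = 0.00874, FDR 0.293; exact permutation p = 0.0238). KLF5 was at 78.8 ± 26.6 and 126 ± 58.8 CPM, a log2 fold change of 0.67 ± 0.31 (edgeR p = 0.0454, FDR 0.41; exact permutation p = 0.167). These were the 2 of 6 factors with an unadjusted p under 0.05, beside 11.9% of the 16161 genes tested in these pools. None of the 6 passed FDR under 0.05, which 1 gene (0.00619%) did. The difference of EOMES was -0.11 ± 0.29 (edgeR FDR 0.914) without these pools, against -0.52 with them.

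The signs of 4 factors depended on Ram424, the sire of 4 of the 6 treatment pools. Without its pools the log2 fold change was -0.62 ± 0.82 for GATA2, -0.50 ± 0.60 for KLF5, -0.89 ± 0.93 for TFAP2C and -0.50 ± 0.74 for ELF3 (SE; edgeR FDR 0.825 to 0.870), with only 2 treatment pools left, 1 of them discordant. GATA2 was the factor for which the 4 pools of Ram424 were all above the other 8, which held for 1 of 6 factors and for 1.82% of all genes. Against the 6 other concordant pools, at 33.4 to 61.6 CPM, the same was true of GATA2 and of 2.43% of all genes. The single pool of Ram498, the concordant treatment pool of another sire, had GATA2 at 44.0 CPM and KLF5 at 64.4 CPM, both within the ranges of the concordant control pools. Diet and the progeny of Ram424 cannot be told apart for these factors.

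**Figure D2:**
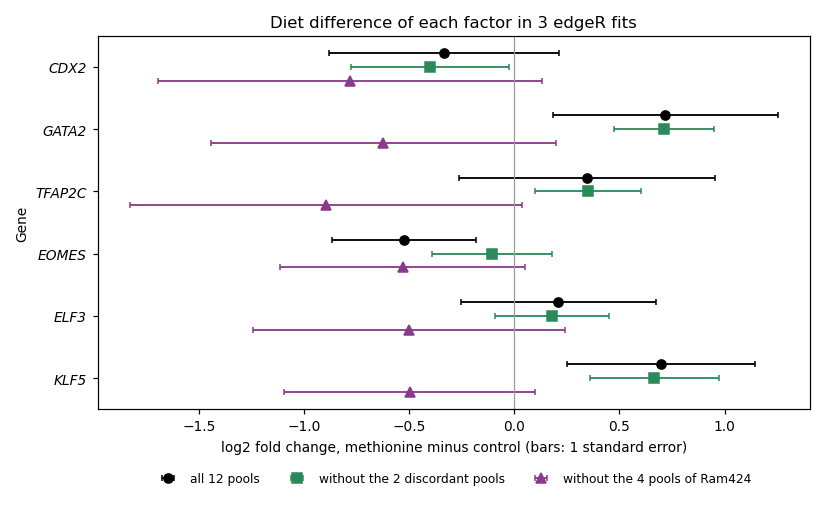
Log2 fold change (methionine minus control) of each factor with 1 standard error, from edgeR fits to all 12 pools, to the 10 concordant pools and to the 8 pools of the other 5 sires. GATA2, TFAP2C, ELF3 and KLF5 were above 0 in the first 2 fits and below 0 without the pools of Ram424, where GATA2 was at -0.62.

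The control sire Ram410 had a like weight for CDX2. Its pool Embryo410_1 held 110 CPM, 146 counts, and the log2 fold change of CDX2 was 0.32 without that pool and 0.52 ± 0.54 (SE; edgeR FDR 0.850) without both pools of that ram. In that pool KLF5 was the highest and ELF3 the lowest of the 5 concordant control pools, and the other factors were between. Among concordant pools the ratio of highest to lowest CPM was 4.73 for CDX2, 4.33 for KLF5, 3.07 for ELF3, 2.82 for EOMES, 2.58 for GATA2 and 2.55 for TFAP2C. Within the 4 pools of Ram424 that ratio was 1.13 for GATA2, 1.25 for ELF3, 1.27 for EOMES, 1.85 for CDX2, 1.86 for TFAP2C and 2.45 for KLF5, and the first 2 of these pools had the highest coefficient of any pair (0.955).

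The 2 discordant pools held the lowest values of 5 of the 6 factors. CDX2, GATA2, TFAP2C, ELF3 and KLF5 were below all 10 concordant pools in both discordant pools (5 of 6 factors, beside 12.9% of all genes), and the summed level of the 6 factors was 178 CPM in Embryo444_2 and 105 CPM in Embryo511_1 against 584 to 1252 CPM elsewhere. These pools were chosen by their coefficients over all genes, so the values are a description.

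The size of the gap differed between the factors. The median of the concordant pools was 12.1 times the value of Embryo444_2 and 4.33 times that of Embryo511_1 for CDX2, which rested on 4 and 8 counts. For GATA2 it was 12.9 and 13.8 times, on 6 and 4 counts, with exact 95% Poisson intervals of 1.56 to 9.24 CPM and 1.08 to 10.2 CPM around the 2 levels. For TFAP2C it was 9.03 and 16.1 times, on 70 and 28 counts. The gap was 7.54 and 5.05 times for ELF3 and 5.71 and 2.76 times for KLF5. KLF5 had the smallest gap of these 5 factors in each discordant pool. Against Embryo444_1, the concordant pool of the same sire, Embryo444_2 was lower by factors of 10.02 for CDX2, 9.04 for TFAP2C, 7.85 for GATA2, 5.78 for KLF5 and 5.35 for ELF3.

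EOMES did not share this pattern. It was at 96.3 CPM in Embryo444_2 (136 counts; 95% interval 80.8 to 114 CPM), above the 24.1 to 67.9 CPM of the concordant pools, and at 18.8 CPM in Embryo511_1 (19 counts; 11.3 to 29.4 CPM), below their lowest value but with an interval that reached into their range. EOMES made up 54.0% of the summed counts of the 6 factors in Embryo444_2 and 17.9% in Embryo511_1, against 2.53 to 7.38% in the concordant pools. The share of TFAP2C was 27.8% and 26.4% against 55.1 to 66.3%. KLF5 made up 29.2% of the 106 counts in Embryo511_1 and 8.33% of the 252 counts in Embryo444_2, against 7.22 to 17.7%. No concordant pool of either diet had a share of EOMES as high, or of TFAP2C as low, as those of the 2 discordant pools. The shares are parts of the same total, so the share of EOMES rises where the other factors fall. In Embryo511_1 its share was raised although its level, 18.8 CPM, was the lowest of all pools. Between diets no share differed by more than the spread, with exact two-sided permutation p values of 0.0887 for KLF5 (10.4 ± 2.96% in control and 15.7 ± 7.14% in treatment pools; SD, n = 6) and 0.284 to 0.922 for the other 5, unadjusted for 6 tests. Without the discordant pools the share of KLF5 was 10.8 ± 3.11% in control and 13.01 ± 2.97% in treatment pools (SD, n = 5; exact permutation p = 0.278), and the p values of the other 5 were 0.246 to 0.921.

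**Figure D3:**
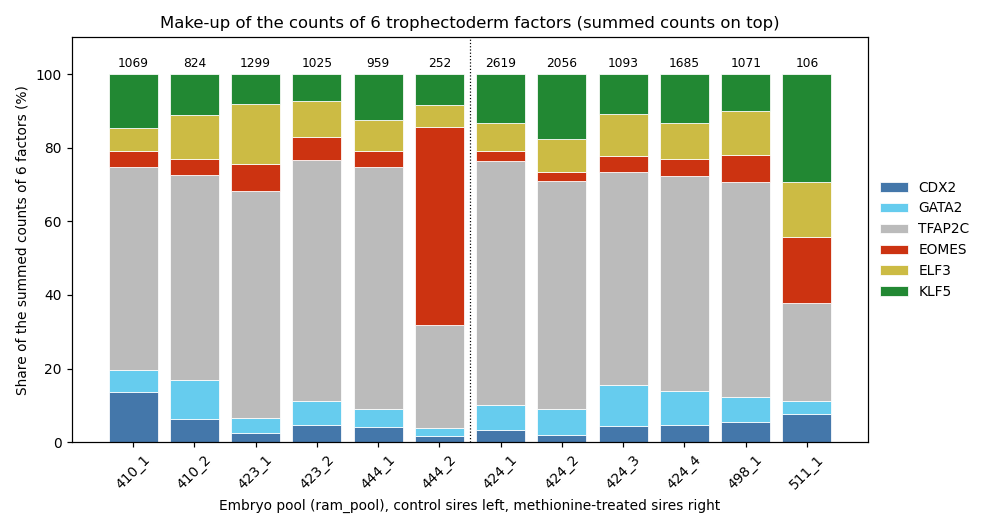
Share of each factor in the summed counts of the 6 factors in each pool, with the summed count on top of each bar. TFAP2C took 55.1 to 66.3% in the 10 concordant pools and 26.4% in Embryo511_1, where KLF5 took 29.2%, while in Embryo444_2 EOMES took 54.0%. Transcript lengths were not used, so the share of a factor is compared between pools and not with that of another factor.

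Some of the genes that act with these factors were also low in the discordant pools, and their counts stand beside the 12.9% of all genes. The effectors of the trophectoderm, such as keratins, junction proteins and aquaporins, were below all concordant pools in both discordant pools for 14 of 26 genes tested. Other trophoblast transcription factors were so for 8 of 23 (DLX4, DLX5, GATA6, GRHL2, ID1, ID2, TBX3 and KLF6), and upstream regulators, mostly of the Hippo pathway, for 6 of 19 (TEAD4, AMOT, AMOTL2, MOB1A, TAOK1 and RBPJ). TEAD4, the DNA-binding partner of YAP1, was at 7.79 and 10.9 CPM against 25.5 to 92.4 CPM in the concordant pools. Of further family members, such as other GATA, ELF and KLF genes, 4 of 24 were below all concordant pools. The opposite order, both discordant pools above all 10 others, held for 0 of the 6 factors and 8.15% of all genes, and for AQP9 among the effectors, STK3 among the upstream regulators, ELF1 among the family members and 0 of the other trophoblast factors. GATA6 and KLF6 stand in more than one of these lists.

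Markers of other cells were examined in the same pools. Those of the inner cell mass were below the concordant pools for 6 of 13 genes tested, and above them for 1 (PRDM14), with summed levels of 462 and 760 CPM against 1142 to 2457 CPM, and those of the hypoblast for 4 of 13, with 1392 and 1621 CPM against 1987 to 2928 CPM. The 11 oocyte and maternal transcripts analysed summed to 201 CPM in Embryo444_2 and 932 CPM in Embryo511_1 against 177 to 254 CPM, where ZP3, a zona pellucida gene, alone was at 410 CPM in Embryo511_1. Of these 11, 2 (ZP3 and KPNA7) were above all concordant pools in both discordant pools and 1 (ZAR1) was below, beside 8.15% and 12.9% of all genes. The 8 white blood cell markers analysed summed to 272 and 418 CPM against 125 to 236 CPM, of which PTPRC, the pan-leukocyte CD45, accounted for 121 and 254 CPM against 40.2 to 76.5 CPM. Of the 7 white blood cell markers tested, 2 (PTPRC and CORO1A) were above all concordant pools in both discordant pools and 0 were below, beside 8.15% and 12.9% of all genes. None of the 8 markers was at 0 in all pools, and TYROBP, a myeloid adaptor, had 0 to 13 counts in the concordant pools, 11 in Embryo444_2 and 1 in Embryo511_1.

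The white blood cell markers were also compared between the discordant pools. In Embryo444_2, 4 of the 8 were above their level in Embryo511_1 (TYROBP, CORO1A, LAPTM5 and FCER1G) and 4 were below it (PTPRC, LCP1, CD74 and SRGN). Some of these orders rest on few counts, such as 10 and 11 for CD74 in Embryo444_2 and Embryo511_1. The list was not chosen for lymphocytes, in which EOMES also acts, and the source of the EOMES transcripts was not tested. Markers of cumulus cells (3 analysed) summed to 161 CPM in Embryo444_2 and 75.3 CPM in Embryo511_1 against 52.9 to 95.4 CPM. Endometrial and stromal markers (11 analysed) summed to 606 and 517 CPM against 436 to 567 CPM, and red blood cell markers (2 analysed) to 14.2 and 12.9 CPM against 16.9 to 623 CPM. FOXA2, an endoderm factor on the hypoblast list that was picked out after its values were seen, was at 39.6 CPM in Embryo444_2 and 13.9 CPM in Embryo511_1 against 0.71 to 9.21 CPM in the concordant pools. It had too few counts to be among the 13 hypoblast genes tested. Of those 13, 4 were below and 0 above all concordant pools in both discordant pools. The filter leaves out genes with enough counts only in the discordant pools, so the count above is limited by it. FOXA2 was picked by its values and is not read as a trait of its list. The part of other cell types in the levels of the 6 factors was not tested.

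**Figure D4:**
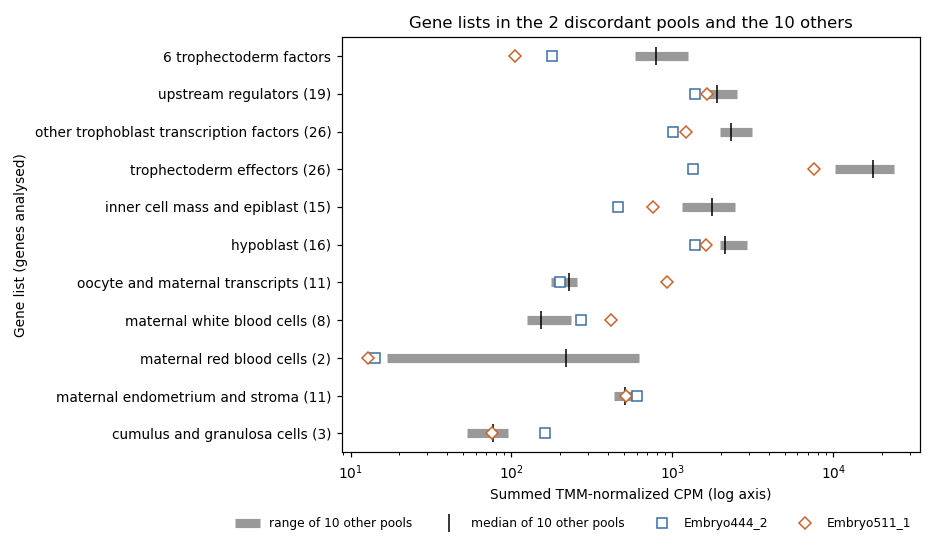
Summed TMM-normalized CPM (log axis) of the 6 factors and of 10 gene lists, with the number of genes analysed in brackets, as the range (grey) and median (tick) of the 10 concordant pools and the values of the 2 discordant pools. The sums of the 6 factors, other trophoblast factors, effectors, inner cell mass, hypoblast and red blood cell genes were below the grey range in both discordant pools. The sum of the white blood cell markers was above it, although singly only 2 of the 7 tested were. The sum of the oocyte transcripts was above it in Embryo511_1 at 932 CPM.

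Between diets, no gene of the 3 lists of the trophectoderm programme passed FDR under 0.05 in edgeR. At an unadjusted p under 0.05, 4 effectors were higher and 1 lower in embryos from treatment sires (26 tested), 3 other trophoblast factors were higher and 0 lower (23 tested), and 0 upstream regulators were higher and 1 lower (19 tested), where over all 16488 genes 586 were higher and 720 lower. The median log2 fold change was 0.46 for effectors, 0.33 for other trophoblast factors and 0.16 for upstream regulators. Without the discordant pools 8 effectors were higher and 1 lower, 4 other trophoblast factors were higher and 2 lower, and 1 upstream regulator was higher and 1 lower, beside 927 higher and 998 lower genes of 16161. The medians were then 0.42, 0.18 and 0.16. All 4 pools of Ram424 were above the other 8 for 7 of 26 effectors (TJP1, CGN, CLDN6, EZR, AQP3, S100A14 and DAB2), 4 of 23 other trophoblast factors and 2 of 19 upstream regulators, beside the 1.82% of all genes.

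Of the upstream regulators, TEAD4 had the highest log2 fold change, 0.55 ± 0.46 (SE; edgeR FDR 0.770), and the receptor NOTCH1 the lowest, -0.67 ± 0.36 (FDR 0.663). Of the other trophoblast factors these were TFEB, a factor needed for placental vascularization, at 0.94 ± 0.37 (edgeR FDR 0.585), and ID1, an inhibitor of helix-loop-helix factors, at -0.80 ± 0.53 (FDR 0.725). TFEB was at 14.4 ± 6.52 CPM in control and 27.5 ± 10.4 CPM in treatment pools (SD, n = 6).

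Of the effectors, KRT19, a keratin of simple epithelia, was at 31.6 ± 20.7 CPM in control and 12.9 ± 4.78 CPM in treatment pools, a log2 fold change of -1.31 ± 0.44 (SE; edgeR FDR 0.584). This was opposite in sign to the median of the effectors. PKP2, a desmosomal plakophilin, had the highest, 3.92 ± 1.10 (FDR 0.584), which came from 1 pool, since it was at 5073 CPM in Embryo511_1 against 47.4 to 114 CPM in the concordant pools and its log2 fold change without the discordant pools was 0.44 (edgeR FDR 0.451).

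For each factor, the genes with the most similar profile of log2(CPM + 1) over the 12 pools were ranked by Pearson's coefficient, as a description in which pools share sires and the 2 discordant pools. CDX2 was most like E2F6 (0.97) and GLMP (0.94), GATA2 most like DDX39B (0.99) and SLC34A2 (0.99), and TFAP2C most like GET4 (0.99) and PACSIN2 (0.99). ELF3 was most like PDGFA (0.99) and CNPY2 (0.99), and KLF5 most like ODC1 (0.97) and RBMX (0.97). EOMES had the weaker matches, LOC114114858 (0.93) and PIGN (0.92). Over the 10 concordant pools alone the coefficients of these 12 pairs were 0.76 to 0.97, and 2 of the 12, GATA2 with SLC34A2 (0.97) and EOMES with PIGN (0.95), were again first or second for their factor.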

How the data were processed

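The deposited values were raw counts per gene and embryo pool. The authors made them with STAR, by its gene count option, from trimmed reads and the Oar_rambouillet_v1.0 genome. Whether counting used strand is not given in the sources used here, so overlapping and antisense genes cannot be told apart. The amplified reads carried no molecular identifiers, so they are not independent molecules and intervals cover counting error only. All 12 columns were mapped to pools by title, and groups follow the labelled treatment. The labels give only the ram and the pool number, and by the paper embryos were pooled by sire and dam. Nothing more is given of the separateness of pools, and p values measure the spread between these pools. The closest pair of pools, Embryo424_1 and Embryo424_2, had a chi-square over degrees of freedom of 3.16, against 7.84 to 24.4 for the other pairs of a sire. Amplified reads are not independent molecules, so a ratio above counting noise cannot show that the pools are separate material. They were kept as 2 pools by their labels, and no alternative merged this pair alone.

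Genes that reached 15 counts in more than 3 pools entered the fit. A gene that did so only in the discordant pools was left out, whereas a gene low only there was kept. Counts of genes above and below all other pools are therefore not on an equal footing. The test was edgeR's quasi-likelihood test (version 4.0.16, R 4.3.3), with TMM normalization, diet as the only term, Benjamini-Hochberg adjustment and FDR under 0.05. The common biological coefficient of variation was 0.450. Exact two-sided permutation tests and counts used Python 3.11.15 with scipy 1.17.1. The test code was tested on simulated data. Alternatives were the likelihood-ratio test of the study, DESeq2 1.42.0, RLE and upper-quartile normalization, other filters, pools summed per ram, limma 3.58.1 with the ram as a random effect (consensus correlation 0.263), and each pool, each ram and both discordant pools left out. RLE for the counts of pools below or above all others, and the shares without the discordant pools, were added after the values were seen.

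The factors and lists were chosen with earlier results of these data known. All factors were described, with the genes of highest and lowest log2 fold change of the 3 trophectoderm lists and the 2 genes most like each factor. Genes named as members of a count, and the marker genes KRT8, KRT18, POU5F1, NANOG, PRDM14, ZP3, PTPRC, TYROBP and FOXA2 were named after their values were seen. Symbols were looked up in RefSeq gene names of ARS-UI_Ramb_v3.0, a different build, so no coordinates or sequences are given. Sperm methylation was not analysed here.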

Additional observations from a re-analysis of the deposited data

Results flagged for a closer look

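A value was marked where the highest or lowest pool of a group of 6 lay apart from the nearest other pool by more than 0.625 of the range of the group (Dixon's 95% limit), which chance does in about 1 in 20 groups. On the CPM scale, CDX2 in the control pool Embryo410_1 (110 CPM) and ELF3 in the treatment pool Embryo511_1 (15.9 CPM) were marked. On the log2(CPM + 1) scale the marked values were those of GATA2 in Embryo444_2 (4.25 CPM) and Embryo511_1 (3.97 CPM), TFAP2C in Embryo444_2 (49.6 CPM) and Embryo511_1 (27.8 CPM), and CDX2 (7.93 CPM) and ELF3 (15.9 CPM) in Embryo511_1. All but the first are the lowest values of the 2 discordant pools. KLF5 and EOMES had no marked pool on either scale.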

How the results depend on the processing

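No factor passed FDR under 0.05 in any of 27 alternatives (lowest FDR 0.293, for GATA2), and EOMES kept its sign in all. For CDX2 the log2 fold change turned positive with the ram as a random effect (0.090), without Embryo410_1 (0.32; -0.58 to 0.32 over single pools left out) and without Ram410 (0.52), and its difference of mean log2(CPM + 1), 0.06 over 12 pools, was -0.17 without both discordant pools, where the difference in the share of ELF3 also turned, from 1.09 to -0.53 percentage points. Without Ram424 it turned negative for GATA2 (-0.62), TFAP2C (-0.89), ELF3 (-0.50), KLF5 (-0.50) and TEAD4 (-0.71). TFAP2C was also at -0.094 with pools summed per ram and -0.59 with the ram as a random effect. ELF3 was also at -0.050 with pools summed per ram, -0.014 without Embryo444_2 (-0.014 to 0.62 over single pools left out) and -0.11 without Ram444. The cause was not tested. Over all genes, 0 were called by the main test (1306 at an unadjusted p under 0.05), 5 by the likelihood-ratio test, 16 by DESeq2 and 1 without both discordant pools. The likelihood-ratio fit made here covered 16488 genes. The paper analysed more genes and called more of them by its likelihood-ratio test, and the reason for the difference was not tested. Factors with an unadjusted p under 0.05 numbered 0, but 2 without both discordant pools and without Ram511, 1 without Ram410 (EOMES), and 0 to 2 with single pools left out (2 without Embryo511_1, the only pool of Ram511). With RLE in place of TMM the counts of factors below or above all other pools were the same. Of the 12 most similar genes, 3 were first or second by Spearman's coefficient. Levels per kilobase and sperm methylation at these genes were not run. No paired analysis was possible because the groups share no replicate numbers. Levels in the discordant pools rest on as few as 4 counts, which limits their precision.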
